A study of Mus musculus with 9 samples.

Results

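The genes examined were the members of the hypoxia-inducible factor (HIF) loop and its targets in pH control and secretion, 10 named genes of the 56748 in the count table. They are the HIF alpha subunits Hif1a and Epas1, the prolyl hydroxylases Egln1, Egln2 and Egln3, the carbonic anhydrases Car9 and Car12, the mitochondrial protein gene Ndufa4l2, and the secreted factors Vegfa and Adm. They were chosen by name for their role in the pathway, with earlier results of these data known. All 10 passed the filter on low counts, which left 13812 genes for testing. Car12 passed through the 48 h libraries alone, so its difference there is not separate from the filter, and counts of members are also given for the 9 others.

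RNA was sequenced from osteocytes of the MLO-Y4 line, an osteocyte-like mouse cell line, and not from the chondrocytes they were grown with. The osteocytes grew in collagen-coated wells. Primary chondrocytes from C57BL/6J mice aged 5 to 6 days were seeded apart from them on transwells, culture inserts with pores of 1.0 µm. Control osteocytes (n = 3) were co-cultured with unstimulated chondrocytes, for a time that the labels do not give. The other osteocytes were co-cultured for 24 h (n = 3) or 48 h (n = 3) with chondrocytes that had received interleukin-1β at 10 ng/mL for 6 h. Stimulation and culture time therefore cannot be told apart against control, whereas 48 h and 24 h differ in time after the same stimulus. For the 48 h samples the labels give MLO-Y5, MLO-Y6 and MLO-Y7 as cell lines, while the protocol gives MLO-Y4, so a difference at 48 h cannot be told apart from a difference in line if those labels are meant. The labels do not say that replicates came from separate cultures, and p-values measure the spread between these libraries.

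HIF is a dimer of an oxygen-regulated alpha subunit (HIF-1α from Hif1a, HIF-2α from Epas1) and a stable partner, ARNT. When oxygen is available, the prolyl hydroxylases (PHD2 from Egln1, PHD1 from Egln2, PHD3 from Egln3) mark the alpha subunit, and the VHL ligase sends it to degradation, so HIF is controlled largely at the protein level, which RNA sequencing does not measure. At low oxygen the dimer binds DNA and raises genes for glycolysis, vessel growth and pH control, and Egln1 and Egln3 are themselves targets, which closes the loop. Inflammatory signals can also raise Hif1a transcripts. In bone, osteocytes lie in a poorly oxygenated matrix, and HIF is known there for coupling bone formation to vessels through VEGF.

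Total counts ranged from 12250628 to 15956441 per library in the control. They were 14440454 to 15558585 at 24 h and 16458398 to 18515456 at 48 h. Levels are counts per 1000000 of the library size (CPM), with library sizes adjusted by TMM, the trimmed mean of M values, whose factors were 0.983 to 1.015. Of 7 osteocyte markers, Sost, Mepe and Fgf23 had no read in the control and 48 h libraries, Mepe and Fgf23 had none at 24 h, and Dmp1 had at most 6 counts. The summed osteocyte markers, mostly Gja1 and Pdpn, lay at 1637 to 1793 CPM in the control, 1886 to 1917 CPM at 24 h and 2649.8 to 2688 CPM at 48 h, and the 3 of them that were tested were higher at 48 h than in the control. The summed osteoblast markers lay at 1573 to 1670.2 CPM in the control, 1383 to 1453 CPM at 24 h and 1521 to 1561 CPM at 48 h. Of the 6 osteoblast markers, all tested, none was higher and 2 were lower at 24 h than in the control. At 48 h 1 was higher and 4 were lower than in the control. The chondrocyte markers Acan, Col9a1 and Cnmd had no read in any library, and the 7 chondrocyte markers summed to 109 to 122 CPM in the control, 102 to 111 CPM at 24 h and 123 to 128 CPM at 48 h, almost all of it Sox9. Of the 3 chondrocyte markers tested, 2 were higher and 1 lower at 48 h than in the control. The 5 macrophage markers summed to at most 7.93 CPM and the 4 endothelial markers to at most 0.521 CPM in any library. The part of these marker differences in the results was not tested. In bulk RNA, fewer cells expressing a gene and less RNA per cell cannot be told apart.

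Differences are log2 fold changes with their standard errors (SE) from edgeR's quasi-likelihood test over all 9 libraries, and a gene is said to have risen or fallen where its Benjamini-Hochberg adjusted p was under 0.05. The comparisons of 24 h and of 48 h with control share the control libraries, so their values stand side by side and are not independent. At 24 h, 7 members were higher than control, none was lower and 3 did not pass. Of all tested genes 3.25% were higher and 2.90% lower in that comparison. At 48 h, 8 members were higher than control, none was lower and 2 did not pass, where 22.0% of all genes were higher and 24.4% lower. Between 24 h and 48 h, 7 members rose, 1 fell and 2 did not pass, where 23.7% of all genes rose and 25.4% fell. Without Car12 the counts were 7 of 9 higher at 24 h, 7 of 9 higher at 48 h, and 6 higher with 1 lower of 9 between the times. For 8 members the libraries did not overlap between the groups at 24 h versus control, and this held for 21.5% of all genes. At 48 h there were 9 such members against control and 9 against 24 h, where 53.1% and 59.4% of all genes were free of overlap. Without Car12, 8 of 9 did not overlap in each comparison. The median log2 fold change of the 10 members was 0.50, 0.72 and 0.57 in these comparisons in the order given, and 0.58, 0.69 and 0.38 without Car12. That of all tested genes was -0.004, -0.002 and -0.002.

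**Figure D1:**
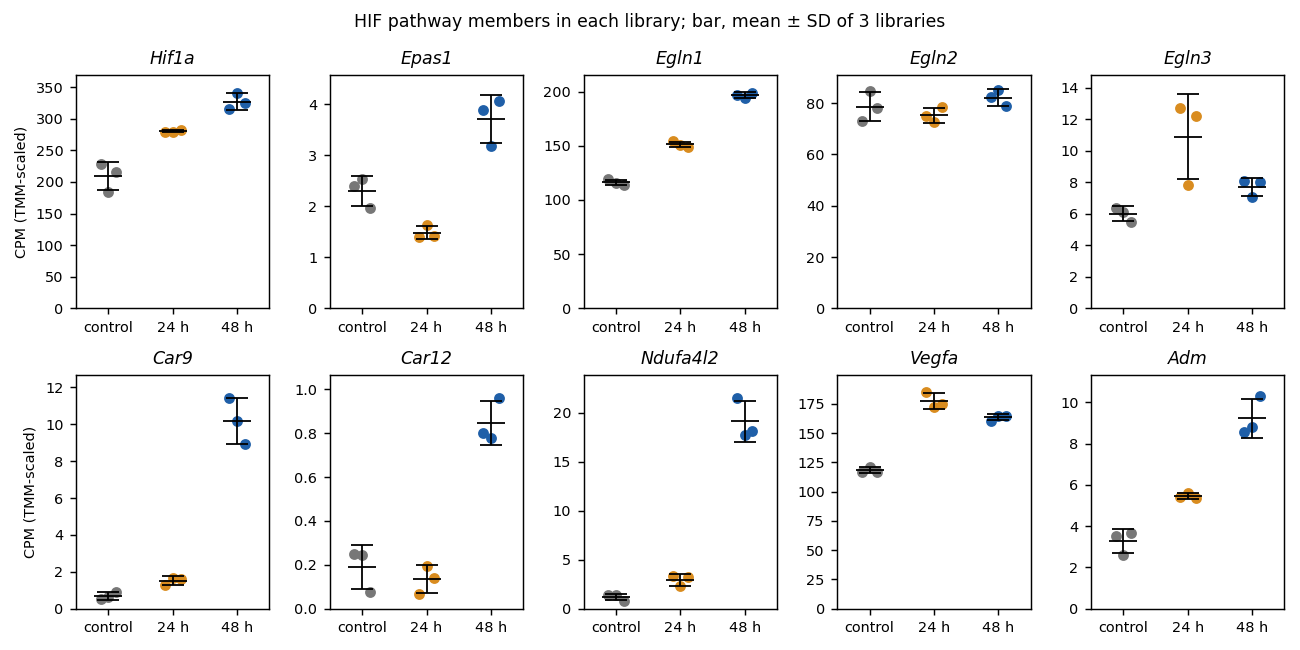
Level of each of the 10 genes in CPM after TMM scaling (vertical axes, 1 panel per gene with its own scale) in the 3 control, 3 24 h and 3 48 h libraries, with 1 point per library and bars for the mean and SD of a group. Ndufa4l2 and Car9 stay below 4 CPM in the control and 24 h libraries and lie between 8.91 and 21.5 CPM at 48 h, while Egln2 stays between 72.7 and 85.3 CPM in every library.

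The DNA before the transcript start is shown for the members with the steepest rise (Car9 and Ndufa4l2), for 1 that rose at each step (Adm) and for 1 that was highest at 24 h (Egln3). The sequences are the 250 bases upstream of the start of the canonical transcript in GENCODE vM39 on build GRCm39, read 5′ to 3′ on the strand of the gene. They lie at chr4:43506716-43506965 (plus strand) for Car9, at chr10:127350568-127350817 (plus) for Ndufa4l2, at chr7:110226608-110226857 (plus) for Adm and at chr12:54250674-54250923 (minus) for Egln3. Capitals mark the cores of the HIF response element, ACGTG and GCGTG on either strand, with overlapping matches merged into 1 stretch.
Car9: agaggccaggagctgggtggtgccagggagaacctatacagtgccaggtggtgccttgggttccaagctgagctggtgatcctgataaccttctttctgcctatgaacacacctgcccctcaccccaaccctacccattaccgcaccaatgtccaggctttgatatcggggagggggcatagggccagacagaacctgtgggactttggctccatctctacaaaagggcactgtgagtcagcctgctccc
Ndufa4l2: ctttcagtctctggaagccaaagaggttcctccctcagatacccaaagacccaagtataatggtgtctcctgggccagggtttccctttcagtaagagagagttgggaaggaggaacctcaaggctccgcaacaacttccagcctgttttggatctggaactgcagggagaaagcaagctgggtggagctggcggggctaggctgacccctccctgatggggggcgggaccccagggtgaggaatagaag
Adm: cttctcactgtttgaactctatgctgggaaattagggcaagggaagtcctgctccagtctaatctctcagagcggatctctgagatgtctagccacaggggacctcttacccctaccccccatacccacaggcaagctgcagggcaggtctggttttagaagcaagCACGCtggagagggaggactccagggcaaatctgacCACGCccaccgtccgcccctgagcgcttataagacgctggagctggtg
Egln3: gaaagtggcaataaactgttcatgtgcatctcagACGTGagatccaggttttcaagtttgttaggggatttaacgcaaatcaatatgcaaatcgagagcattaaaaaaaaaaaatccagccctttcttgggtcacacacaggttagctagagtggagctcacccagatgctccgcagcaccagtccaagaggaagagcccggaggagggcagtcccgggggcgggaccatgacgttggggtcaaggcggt
No core was found in the windows of Car9 and Ndufa4l2, or in those of Car12 and Vegfa, which are not printed. Adm held 2 stretches, 44 and 80 bases before the start. Egln3 held 1 stretch 212 bases before the start. Among the members not shown, Hif1a, Epas1 and Egln1 held 1 stretch each and Egln2 held 4. The spans of the members given below are those of the count table and equal those of GENCODE vM39 for Car9 alone. The Hif1a window, at chr12:73954320-73954569, lies inside the span given for Hif1a. The Egln1 window, at chr8:125676866-125677115, does not adjoin the span given for Egln1, and the Car12 window, at chr9:66620467-66620716, does not adjoin that given for Car12. Of all member windows, only that of Car9 directly adjoins its span. Across 21757 windows of the same length, 41.3% held either core, 17.0% held ACGTG and 31.2% held GCGTG, and either core was found in 6 of the 10 member windows. In the promoter table of RefSeq, on build GRCm38.p6 and with windows from 250 bases before to 50 after the start, 8 members were matched (all but Epas1 and Ndufa4l2) and 7 of the 8 held a core in at least 1 window, all but Car12, where 43.8% of 32851 windows held one. Car9, with 1 core in its window, and Vegfa, with cores in 1 of its 2 windows, thus differed from the upstream windows. The member figure counts genes, of which Egln2 and Vegfa had 2 windows each. The share of all RefSeq windows counts single windows, so it is not a like measure. A match is a run of letters and not a measured binding site, and its absence covers these windows alone.

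Hif1a, which codes for HIF-1α, lies on chromosome 12 from 73948149 to 73994304. It was at 228, 184 and 216 CPM in the control libraries, at 279, 279 and 282 CPM at 24 h and at 315, 341 and 324 CPM at 48 h. Each group lay above the one before it without overlap. Against control, Hif1a rose on the log2 scale by 0.42 (SE 0.06, adjusted p 0.000248) after 24 h and by 0.64 (SE 0.06, adjusted p 1.43e-07) after 48 h. Between the times it rose by 0.22 (SE 0.06, adjusted p 0.00625). Its span holds the antisense gene Gm15283 over 46156 bases, with 4 to 31 counts in any library against 2247 to 6067 for Hif1a, and Snapc1l on the same strand, with no read in any library.

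Epas1, which codes for HIF-2α, lies on chromosome 17 from 87061128 to 87140838 and was scarce. It was at 2.39, 2.53 and 1.96 CPM in the control, at 1.40, 1.63 and 1.41 CPM at 24 h and at 3.89, 3.18 and 4.06 CPM at 48 h. All 24 h libraries lay below all control libraries and all 48 h libraries above them. The difference at 24 h did not pass (log2 fold change -0.63, SE 0.24, adjusted p 0.16, 95% interval -1.14 to -0.11). Epas1 was higher at 48 h than in the control (0.69, SE 0.21, adjusted p 0.0118) and higher than at 24 h (1.32, SE 0.22, adjusted p 8e-05). The call against control was lost without 48 h replicate 3 (adjusted p 0.0507) and with libraries thinned to the depth of the shallowest (0.48, adjusted p 0.094), where the adjusted p over the alternatives ranged from 0.00983 to 0.094. Per kilobase of the gene length in the table, Epas1 made up 1.15% of the alpha subunit level in the control, 0.555% at 24 h and 1.18% at 48 h, and Hif1a the rest. Gm50008, on the same strand within its span, had no read in any library.

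Egln1, which codes for PHD2, the main oxygen sensor acting on HIF-1α, lies on chromosome 8 from 125635326 to 125676063. It was at 119, 116 and 114 CPM in the control, at 154, 151 and 149 CPM at 24 h and at 197, 194 and 199 CPM at 48 h. The groups did not overlap, and the spread within a group was at most 2.78 CPM (SD, n = 3). Egln1 rose by 0.38 on the log2 scale (SE 0.05, adjusted p 4.91e-05) from control to 24 h. It rose by another 0.38 (SE 0.05, adjusted p 2.66e-06) from there to 48 h, a difference from control of 0.76 (SE 0.05, adjusted p 5.47e-10).

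Egln2, which codes for PHD1, lies on chromosome 7 from 26858083 to 26866227. Its level was 73.1, 84.6 and 78.2 CPM in the control, 74.8, 72.7 and 78.4 CPM at 24 h and 82.2, 85.3 and 78.9 CPM at 48 h. Both groups with stimulated chondrocytes overlapped the control. None of its differences passed. Against control, the log2 difference was -0.06 after 24 h (95% interval -0.19 to 0.07, adjusted p 0.667) and 0.06 after 48 h (95% interval -0.07 to 0.20, adjusted p 0.418). Between the times it was 0.13 (adjusted p 0.102), with every 48 h library above every 24 h library. This difference passed in 3 of 16 alternatives, with scaling by library size alone (0.16, adjusted p 0.0342), with the 6 libraries of those groups alone (0.039) and without control replicate 2 (0.0427), over a range of 0.0342 to 0.295. Cyp2t4 on the opposite strand overlaps Egln2 over 11 bases and had at most 8 counts in a library.

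Egln3, which codes for PHD3, the hydroxylase most readily raised by hypoxia in many cells, lies on chromosome 12 from 54225767 to 54250646. It was at 6.40, 6.13 and 5.49 CPM in the control, at 12.7, 7.81 and 12.2 CPM at 24 h and at 8.11, 7.07 and 8.01 CPM at 48 h. All 24 h libraries lay above the control, but 24 h replicate 2 lay within the 48 h range. Egln3 was higher at 24 h than in the control (log2 fold change 0.85, SE 0.17, adjusted p 0.00304) and fell from 24 h to 48 h (-0.49, SE 0.16, adjusted p 0.0142), the only member to fall between these times. That fall did not pass without 24 h replicate 1 (adjusted p 0.0956), 24 h replicate 3 (0.0807) or 48 h replicate 2 (0.0593), over a range of 0.000505 to 0.0956. The difference at 48 h against control was 0.36 (SE 0.17, adjusted p 0.0912, 95% interval 0.00 to 0.72), with all 48 h libraries above the control. It passed with the 6 libraries of those groups alone (adjusted p 0.0421), with thinned libraries (0.0487) and without 24 h replicate 2 (0.0272), over a range of 0.0272 to 0.194.

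Per kilobase, Egln1 took the largest share of the summed level of the 3 hydroxylases in every library. Its share was 51.7% ± 1.86 (SD, n = 3) in the control, 57.6% ± 1.65 at 24 h and 62.9% ± 1.01 at 48 h, and the groups did not overlap. The share of Egln2 was 44.8% ± 2.08, 36.8% ± 1.01 and 33.7% ± 1.25 in the same order, also without overlap. The share of Egln3 was 3.60% ± 0.288 in the control, 5.58% ± 1.25 at 24 h and 3.34% ± 0.252 at 48 h, so that the control and 48 h ranges overlapped. These shares were not tested, and a rise in 1 gene lowers the shares of the others.

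**Figure D2:**
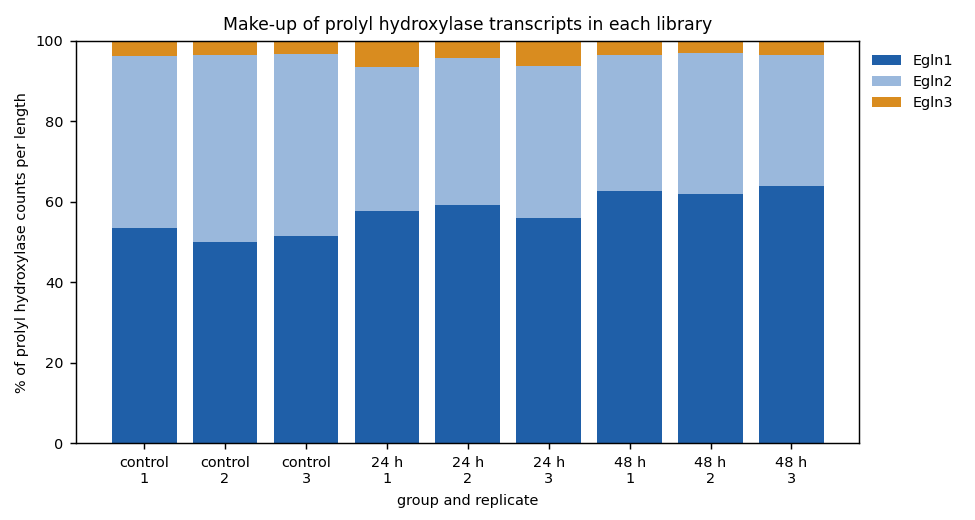
Share of the summed CPM per kilobase of Egln1, Egln2 and Egln3 taken by each gene (vertical axis, percent), as 1 stacked column for each of the 9 libraries ordered by group. The mean Egln1 share is 51.7% in the control and 62.9% at 48 h, the mean Egln2 share is 44.8% and 33.7%, and Egln3 stays under 6.5% in every library.

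Car9, which codes for carbonic anhydrase IX, a membrane enzyme that turns carbon dioxide into bicarbonate and acid outside the cell and a classic HIF-1 target, lies on chromosome 4 from 43506966 to 43513729 (11 exons in GENCODE vM39). It was at 0.502, 0.654 and 0.903 CPM in the control, at 1.27, 1.69 and 1.62 CPM at 24 h and at 11.4, 10.2 and 8.91 CPM at 48 h. Its counts were 8 to 12 per library in the control, 19 to 26 at 24 h and 167 to 199 at 48 h, and no groups overlapped. At 48 h Car9 was 14.8-fold higher than in the control (log2 fold change 3.89, SE 0.23, adjusted p 1.73e-10) and 6.61-fold higher than at 24 h (2.73, SE 0.19, adjusted p 1.99e-09). At 24 h it was 2.24-fold higher than in the control (1.16, SE 0.30, adjusted p 0.0272). That call was lost in 5 of 16 alternatives, with adjusted p of 0.143 and 0.0664 when control replicate 1 or 2 was left out, 0.0879 and 0.0904 when 24 h replicate 2 or 3 was, and 0.0809 with the 6 libraries of those groups alone, over a range of 0.0107 to 0.143. The antisense gene Gm12454 overlaps Car9 over 1798 bases and had 3 to 6 counts in the control, 1 to 5 at 24 h and 10 to 15 at 48 h.

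Car12, which codes for carbonic anhydrase XII, another membrane enzyme with its active site outside the cell, lies on chromosome 9 from 66620968 to 66674127 and was close to the limit of detection. Its counts were 4, 3 and 1 in the control, 1, 3 and 2 at 24 h and 14, 13 and 18 at 48 h. All 48 h libraries lay above all others, and the control and 24 h libraries overlapped. The floor of 3 counts corresponded to 0.16 to 0.245 CPM, so no fold is given between control and 24 h. Over summed counts, scaled by library size, the 48 h level was 4.41 times that of the control (95% exact interval 2.06 to 10.8, 45 against 8 counts) and 6.31 times that at 24 h (2.68 to 18.1, 45 against 6 counts). These intervals cover counting error alone. In edgeR's test the adjusted p was 0.00265 against control and 0.00065 against 24 h. Car12 entered that test through its 48 h libraries alone, so neither these values nor the ratios are separate from the filter.

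Ndufa4l2, a HIF-1 target whose product resembles the cytochrome c oxidase subunit NDUFA4 and lowers mitochondrial respiration, lies on chromosome 10 from 127350836 to 127353023. It was at 1.38, 1.39 and 0.828 CPM in the control, at 3.34, 2.28 and 3.25 CPM at 24 h and at 21.5, 17.7 and 18.2 CPM at 48 h. No groups overlapped. At 24 h it was 2.43-fold higher than in the control (log2 fold change 1.28, SE 0.25, adjusted p 0.00256). At 48 h it was 15.8-fold higher than in the control (3.98, SE 0.19, adjusted p 1e-11) and 6.49-fold higher than at 24 h (2.70, SE 0.16, adjusted p 1.48e-10).

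An overlap of 32 bases with Shmt2, a mitochondrial serine hydroxymethyltransferase gene on the opposite strand, makes the Ndufa4l2 count uncertain, because the sources used here do not say whether counting used the strand. Shmt2 was at 378, 412 and 390 CPM in the control, at 436, 414 and 438 CPM at 24 h and at 245, 228 and 241 CPM at 48 h. It moved the other way at 48 h (log2 fold change -0.72, SE 0.05, adjusted p 1.16e-09 against control), while at 24 h its difference was 0.13 (adjusted p 0.148). For each 100 Shmt2 counts there were 0.366, 0.337 and 0.212 Ndufa4l2 counts in the control, 0.766, 0.551 and 0.740 at 24 h and 8.79, 7.79 and 7.54 at 48 h. The ratio of the counts was thus not constant across groups.

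Vegfa, the main angiogenic ligand, lies on chromosome 17 from 46327919 to 46343295. It was at 117, 121 and 117 CPM in the control, at 185, 172 and 175 CPM at 24 h and at 160.5, 165 and 165 CPM at 48 h. Both later groups lay above the control without overlap, and the 48 h libraries lay below the 24 h libraries. Vegfa exceeded the control by 0.58 on the log2 scale at 24 h (SE 0.05, adjusted p 4.32e-07) and by 0.47 at 48 h (SE 0.05, adjusted p 4.62e-07). The difference between the times was -0.12 (SE 0.05, adjusted p 0.0565). It passed with the 6 libraries of those groups alone (adjusted p 0.028) and without control replicate 2 (0.0459), over a range of 0.028 to 0.242.

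Adm, which codes for adrenomedullin, a secreted peptide that acts on vessels and bone cells, lies on chromosome 7 from 110226868 to 110229027. It was at 3.52, 2.62 and 3.69 CPM in the control, at 5.41, 5.60 and 5.36 CPM at 24 h and at 8.57, 8.81 and 10.3 CPM at 48 h. Each group lay above the one before it without overlap. Adm exceeded the control by 0.73 on the log2 scale at 24 h (SE 0.17, adjusted p 0.0131) and by 1.49 at 48 h (SE 0.16, adjusted p 4.12e-07), and the difference between the times was 0.76 (SE 0.15, adjusted p 0.000271). The call at 24 h was lost without control replicate 2 (adjusted p 0.0547), over a range of 0.00308 to 0.0547. The antisense gene Gm28863 overlaps Adm over 2160 bases and had at most 7 counts in any library.

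**Figure D3:**
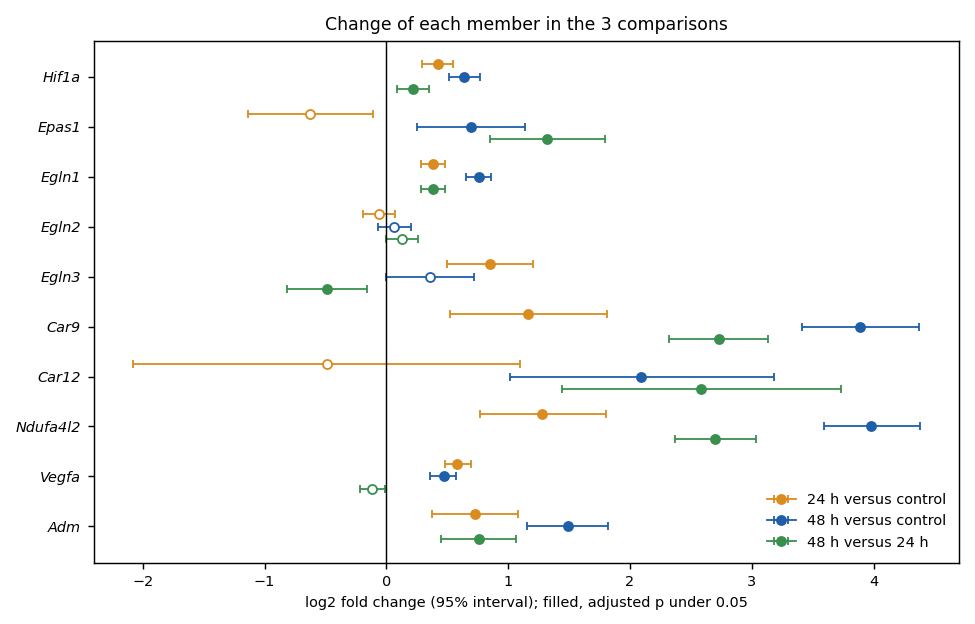
Log2 fold change of each of the 10 genes (horizontal axis) for 24 h versus control, 48 h versus control and 48 h versus 24 h, with bars for the 95% interval of the edgeR fit. Ndufa4l2 and Car9 reach 3.98 and 3.89 at 48 h versus control, the intervals of Egln2 include 0 or reach it, and Egln3 alone has an interval entirely below 0 between 24 h and 48 h among the genes that passed.

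Levels can be set against each other only per kilobase of gene length. In the control the order of the mean CPM per kilobase was Hif1a (35.5), Egln1 (32.4), Egln2 (28.1), Vegfa (27.6), Egln3 (2.26), Adm (2.02), Ndufa4l2 (1.10), Epas1 (0.41), Car9 (0.298) and Car12 (0.0251). The ranges over libraries overlapped between the neighbours Hif1a and Egln1, Egln2 and Vegfa, Egln3 and Adm, and Epas1 and Car9. At 24 h the levels were 47.5 for Hif1a, 42.1 for Egln1, 41.4 for Vegfa and 26.9 for Egln2, and Egln3 followed at 4.09, Adm at 3.37, Ndufa4l2 at 2.70, Car9 at 0.663, Epas1 at 0.265 and Car12 at 0.0177. Vegfa thus stood above Egln2, and Car9 above Epas1, without overlap of their libraries, while Egln1 and Vegfa, and Egln3 and Adm, overlapped. At 48 h Hif1a (55.4) and Egln1 (54.7) led and overlapped, followed by Vegfa (38.1), Egln2 (29.3), Ndufa4l2 (17.5), Adm (5.70), Car9 (4.41), Egln3 (2.90), Epas1 (0.663) and Car12 (0.111). Ndufa4l2 had moved above Egln3 and Adm, and Car9 above Egln3.

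The other genes of the pathway were taken from 7 lists with 98 genes, of which 78 passed the filter on low counts. Against control, 23 were higher and 1 lower at 24 h, with a median log2 fold change of 0.16, and 45 were higher and 11 lower at 48 h, with a median of 0.36. Between the times 38 rose and 16 fell, with a median of 0.16. The shares of all genes given above apply to these counts as well, and the lists too were chosen with earlier results of these data known. The genes named below are those with the largest absolute change in each list among the called genes whose mean reached 5 CPM in 1 of the groups compared.

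Of 7 tested subunits and partners of HIF, 1 was higher at 24 h, 2 were higher at 48 h and none was lower against control. Arnt, the shared partner of the alpha subunits, averaged 175 CPM ± 6.85 in the control, 176 CPM ± 6.24 at 24 h and 237 CPM ± 3.88 at 48 h (SD, n = 3 each) and rose at 48 h (log2 fold change 0.43, adjusted p 9.99e-07). The coactivator gene Crebbp was higher at 48 h (0.30, adjusted p 0.00363). Cited2, a target that competes with HIF-1α for its coactivators, was higher at 24 h (0.16, adjusted p 0.034) and fell by 0.15 from 24 h to 48 h (adjusted p 0.00841). Arnt2 fell by 1.05 between the times (adjusted p 0.00101). Of 12 genes of oxygen-dependent hydroxylation and the VHL ligase, none passed at 24 h, and 2 were higher and 4 lower at 48 h against control. Vhl, which recognises the hydroxylated subunit, was higher at 48 h (0.35, adjusted p 0.000395), as was Os9 (0.43, adjusted p 1.16e-06). Eloc, which codes for elongin C of the same ligase, was lower (-0.38, adjusted p 2.75e-05), and its scaffold gene Cul2 fell by 0.26 from 24 h to 48 h (adjusted p 0.00185).

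Of 14 other carbonic anhydrases 3 passed the filter. None passed the test at 24 h and 2 were higher at 48 h, among them Car5b, a mitochondrial form (0.42, adjusted p 0.00017), which rose by 0.63 between the times (adjusted p 1.79e-06). Car13, a cytosolic form, rose by 0.20 between the times (adjusted p 0.0208). Of 10 genes of acid and bicarbonate transport, 2 were higher and 1 lower at 24 h, and 7 were higher and none lower at 48 h. Slc16a3, which codes for the lactate exporter MCT4, was higher at both times (0.62, adjusted p 0.0216 and 0.79, adjusted p 0.000295). Slc16a1, which codes for the lactate transporter MCT1, was higher at 24 h (0.29, adjusted p 0.000451) and rose by 0.31 from 24 h to 48 h (adjusted p 1.66e-05). The bicarbonate transporter genes Slc4a3 (0.67, adjusted p 7.27e-05) and Slc4a4 (0.65, adjusted p 0.000174) were higher at 48 h. Atp6v1a, a subunit of the vacuolar proton pump, was lower at 24 h (-0.19, adjusted p 0.0359) and rose by 0.37 from there to 48 h (adjusted p 9.27e-06).

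Of 11 tested ligands and receptors of the VEGF and adrenomedullin systems, 1 was higher at 24 h, and 6 were higher and 3 lower at 48 h. The receptor partners for adrenomedullin moved apart. Ramp3 was at 12.4 CPM in the control, 25.2 CPM at 24 h and 8.03 CPM at 48 h, higher at 24 h (log2 fold change 1.02, adjusted p 1.86e-05) and lower by 1.64 at 48 h than at 24 h (-1.64, adjusted p 3.85e-09). Ramp2 was at 22.6 CPM in the control, 19.1 CPM at 24 h and 42.1 CPM at 48 h (0.89, adjusted p 2.62e-06 at 48 h against control). Among the lymphangiogenic ligands, Vegfd was higher at 48 h (0.67, adjusted p 3.01e-06) and Vegfc lower (-0.64, adjusted p 0.00436). Of 4 tested genes listed as related to Ndufa4l2 or cytochrome c oxidase, not all of them subunits, none passed at 24 h, and 1 was higher and 1 lower at 48 h. Higd1a, a HIF-induced regulator of the oxidase, was at 111 CPM in the control, 126 CPM at 24 h and 234 CPM at 48 h (1.08, adjusted p 1.57e-11). Ndufa4, the subunit that NDUFA4L2 resembles, was at 189.9 CPM in the control, 181 CPM at 24 h and 154 CPM at 48 h (-0.31, adjusted p 0.000202). Cox4i1 rose by 0.15 from 24 h to 48 h (adjusted p 0.0425), with libraries that overlapped.

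Of 31 tested other HIF targets, 19 were higher and none lower at 24 h, with a median log2 fold change of 0.29. At 48 h 25 were higher and 3 lower, with a median of 0.58, and between the times 18 rose and 6 fell, with a median of 0.23. Pfkfb3, which drives glycolysis, was higher at both times (0.83, adjusted p 1.02e-06 and 1.51, adjusted p 1.57e-11). Ddit4, an inhibitor of mTORC1 signalling, was higher at 24 h (0.71, adjusted p 2.23e-07), as was the adenylate kinase gene Ak4 (0.70, adjusted p 1.36e-05). Selenbp1, a selenium-binding protein gene, was at 8.45 CPM in the control, 7.94 CPM at 24 h and 47.7 CPM at 48 h (2.49, adjusted p 1.46e-12 at 48 h). Ndrg1, a stress-responsive gene, was at 80.8 CPM in the control, 87.8 CPM at 24 h and 269 CPM at 48 h (1.73, adjusted p 2.16e-13). Tfrc, the transferrin receptor gene, was at 228 CPM in the control, 241 CPM at 24 h and 99.7 CPM at 48 h and fell by 1.28 between the times (adjusted p 7.22e-12).

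**Figure D4:**
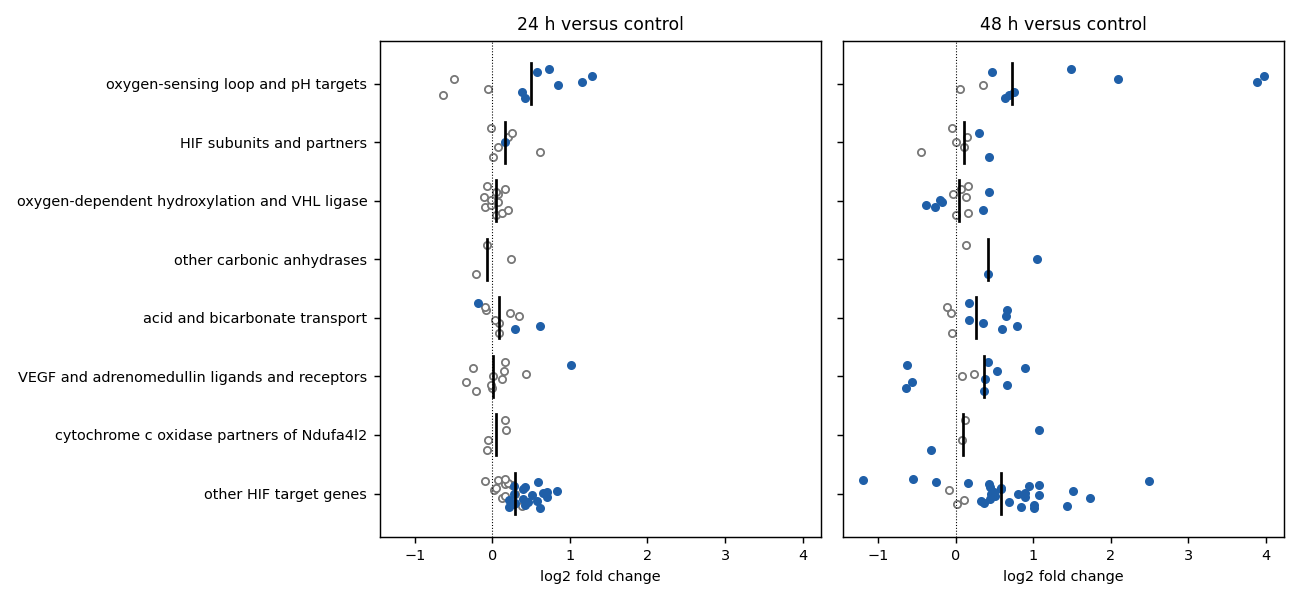
Log2 fold change of the tested genes of the 7 pathway lists (horizontal axis, 1 point per gene, 1 row per list with the member genes in a row of their own) for 24 h and for 48 h versus control, with filled points for an adjusted p under 0.05 and a line for the median. The median of the other HIF targets is 0.29 at 24 h and 0.58 at 48 h against control, and the hydroxylation and VHL list has medians of 0.05 and 0.04.

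For each member, the gene with the most similar course was the protein-coding gene with the smallest root mean square difference in centred log2 CPM over the 9 libraries, among 10073 candidates outside the 10 members with a mean of at least 5 CPM. It was Acsl4 for Hif1a (0.0534), Brinp3 for Egln1 (0.0568), Ap3d1 for Egln2 (0.0338) and Slc39a14 for Vegfa (0.0532). It was Itih2 for Epas1 (0.111), Ccl5 for Adm (0.138), Lrrc32 for Egln3 (0.163) and Tcp11l2 for Car12 (0.214). For Car9 it was Clu (0.57) and for Ndufa4l2 it was Selenbp1 (0.681). Car9 and Ndufa4l2 were closer to each other (0.415) than to these genes. Clu and Selenbp1 had log2 fold changes of -0.24 and -0.10 at 24 h and of 3.12 and 2.49 at 48 h, where Car9 had 1.16 and 3.89 and Ndufa4l2 had 1.28 and 3.98. For the similarity alone, 2 was added to the counts before the logarithm, which flattens the course of genes with few counts. The match for Car12, which passed the filter through its 48 h libraries alone, is limited by this.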

How the data were processed

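RNA of MLO-Y4 cells in 9 libraries (3 groups of 3, from the sample labels) was measured by directional paired-end sequencing. The authors aligned reads to GRCm39 with HISAT2 and counted them per gene with featureCounts (version 2.06 in the processing notes of the submitters), and deposited raw counts in 1 table. RSEM is also named. Settings for strand and multiple matches are not given in the sources used here, so counts of overlapping genes are uncertain.

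The software was R 4.3.3 with edgeR 4.0.16 (and limma 3.58.1). The filterByExpr function with a minimum count of 10 kept 13812 genes with 99.9% of the counts. All libraries entered 1 quasi-likelihood fit with TMM scaling, no term but group and 6 residual degrees of freedom, and Benjamini-Hochberg adjustment covered all genes. The SE is the absolute log2 fold change over the root of F. CPM are counts per 1000000 of the TMM-scaled library size, divided by the authors' gene length where given per kilobase. Alternatives were DESeq2 1.42.0, other scalings, no filter, thinning, the groups compared alone, a replicate block, stricter thresholds and leaving out each library. On simulated counts for 48 h versus control, 94.0% of the changed genes were recovered. Each of those genes was given a log2 change of 1 or more in either direction, so recovery of smaller changes was not measured. Total counts per library ranged from 12250628 to 18515456, and 3 counts were taken as the floor. Pairs of replicates differed by more than counting noise. The chi-square per degree of freedom was 5.26 to 8.83 in the control, 2.39 to 3.55 at 24 h and 2.32 to 3.76 at 48 h.

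The members, lists and tests were chosen with earlier results of these data known. Named were all members, genes overlapping them, at most 3 called genes per list and comparison with a mean of at least 5 CPM, and the gene most similar to each member.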

Additional observations from a re-analysis of the deposited data

Results flagged for a closer look

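The difference between 48 h and 24 h is also the difference between their effects against the shared control. By that test it passed for 8 members, with log2 values of 0.22 for Hif1a, 1.32 for Epas1, 0.38 for Egln1, -0.49 for Egln3, 2.73 for Car9, 2.58 for Car12, 2.70 for Ndufa4l2 and 0.76 for Adm. These are the values already given for 48 h versus 24 h and not a further test. In that comparison 23.7% of all tested genes rose and 25.4% fell. Car12 passed the filter on low counts through the 48 h libraries alone and had at most 3 counts at 24 h, so its value depends on the prior count, and 7 of the 9 other members passed. The difference was -0.85 for Shmt2, the gene that overlaps Ndufa4l2.

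Among the genes named from the pathway lists, the positive differences were 0.43 for Arnt, 0.38 for Os9, 0.63 for Car5b, 0.20 for Car13, 0.31 for Slc16a1, 0.30 for Slc4a4, 0.75 for Slc4a3, 0.37 for Atp6v1a, 0.69 for Vegfd, 1.14 for Ramp2, 0.15 for Cox4i1, 0.90 for Higd1a, 1.61 for Ndrg1, 0.19 for Ddit4, 0.69 for Pfkfb3 and 2.59 for Selenbp1. The negative differences were -1.05 for Arnt2, -0.15 for Cited2, -0.35 for Eloc, -0.26 for Cul2, -0.63 for Vegfc, -1.64 for Ramp3, -0.24 for Ndufa4, -0.21 for Ak4 and -1.28 for Tfrc. Groups of 3 libraries were not searched for outlying samples.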

How the results depend on the processing

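None of the results reversed its direction under any alternative run. For single members, 483 values kept their side of the threshold, 8 passed it and 15 lost it, of which 4 were lost under the stricter adjusted p of 0.01 (Epas1 at 48 h and Car9 and Adm at 24 h against control, and Egln3 between the times), and the others are given with the member. With an absolute log2 change of 1 or more also required, there were 2, 4 and 4 members and 1, 11 and 7 list genes for 24 h versus control, 48 h versus control and 48 h versus 24 h, and 63, 705 and 806 of all genes. Car12, which passed the filter through the 48 h libraries alone, was among the 4 members in both comparisons of 48 h. It passed there in all 15 alternatives that tested it, so the member counts of the alternatives include it where it was tested. With an adjusted p under 0.01, 464 of all genes passed at 24 h versus control, where 849 passed at 0.05. Leaving out each library in turn gave 5 to 7, 7 to 9 and 7 to 10 members called and 19 to 30, 52 to 57 and 45 to 57 list genes in the 3 comparisons. With all libraries, 22.0% of all genes were higher and 24.4% lower at 48 h versus control, and 23.7% rose and 25.4% fell between the times. At 24 h versus control, 518 to 1475 of all genes were called with a library left out. The lowest of these counts was without 24 h replicate 3 (524 without 24 h replicate 1) and the highest without control replicate 3. The cause of these changes was not tested.

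Same-numbered libraries did not visibly deviate together (correlations between -0.0493 and 0.0775, and between -0.097 and 0.0949 for differently numbered ones). With 3 libraries per group, this cannot exclude that the numbers pair them. With the replicate block, 7, 8 and 8 members, 26, 57 and 54 list genes and 958, 6468 and 6810 of all genes were called. Depth limits the members with low counts in the control libraries, at most 4 of Car12, 12 of Car9, 22 of Ndufa4l2 and 38 of Epas1.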
